A study of Homo sapiens with 4 samples.

Results

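The genes described here encode 10 proteins of the mTORC1 pathway: the kinase MTOR and its scaffold RPTOR, the 2 inhibitors AKT1S1 and DEPTOR that sit inside the complex, the tumour suppressors TSC1 and TSC2, the GTPase RHEB that they switch off, the substrate EIF4EBP1, and the stress-induced brakes DDIT4 and SESN2. They were chosen by name, with earlier results of these data known. They are 10 of 19775 genes that the array reads through probe sets with only 1 symbol. Every probe set annotated with only 1 of these symbols was taken, which gave 23 of 54613, 9 of them for RHEB, 2 each for TSC2, MTOR, DEPTOR, AKT1S1 and SESN2, and 1 each for TSC1, RPTOR, EIF4EBP1 and DDIT4. No probe set named a member beside another gene. The RNA came from BT474, a human breast cancer line that carries extra copies of ERBB2. The cells grew in DMEM in dishes and were exposed for 24 h to 0.5 mM AICAR or to a vehicle whose makeup the labels do not give, with 2 arrays for each of the 2 groups. AICAR is taken up by cells and phosphorylated to ZMP, which imitates AMP and activates the kinase AMPK. Both groups are the same line without genetic changes, so the treatment is the only stated difference. The labels do not tell whether the arrays of a group came from separate cultures. The p-values and confidence intervals therefore cover the spread between these arrays, which may be technical.

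mTORC1 is a protein kinase complex that drives protein synthesis and other growth processes when amino acids and growth factors are plentiful. GTP-bound RHEB activates it on the lysosome, and the TSC complex, in which TSC2 is the GTPase-activating part and TSC1 its stabiliser, keeps RHEB inactive. AMPK is known to restrain mTORC1 by phosphorylating TSC2 and RPTOR, a step that leaves no direct mark on transcript abundance, which is all that an expression array measures. DDIT4 (REDD1) and SESN2 (sestrin 2) restrain the same kinase, and their genes are known to be induced by stress factors such as ATF4, HIF1 and p53. In HER2-positive breast cancer cells the pathway lies downstream of the receptor through PI3K and AKT.

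The 250 bases before the start sites of DDIT4 and SESN2, the stress-induced brakes, are shown. They are RefSeq sequences of GRCh38.p14, read 5′ to 3′ on the gene's own strand. DDIT4 lies at chr10:72273674-72273923 (plus strand) and SESN2 at chr1:28259268-28259517 (plus strand). Capitals mark matches to any of 5 short motifs searched on both strands.

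DDIT4: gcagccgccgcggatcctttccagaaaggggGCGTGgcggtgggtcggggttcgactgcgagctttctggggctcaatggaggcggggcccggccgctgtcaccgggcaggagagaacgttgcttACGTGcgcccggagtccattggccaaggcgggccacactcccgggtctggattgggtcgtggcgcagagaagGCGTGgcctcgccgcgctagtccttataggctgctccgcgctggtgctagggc

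SESN2: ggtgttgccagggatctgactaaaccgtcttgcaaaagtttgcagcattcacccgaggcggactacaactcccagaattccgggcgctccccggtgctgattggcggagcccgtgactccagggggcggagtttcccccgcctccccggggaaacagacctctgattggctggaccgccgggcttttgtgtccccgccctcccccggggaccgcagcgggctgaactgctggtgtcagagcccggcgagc

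The motifs were the C/EBP-ATF composite element TGATGNAAT, the E-box CACGTG, the hypoxia response cores ACGTG and GCGTG, and the TATA box TATAAA. Any CACGTG holds ACGTG on both strands. The DDIT4 window held ACGTG at 125 bases before the start and GCGTG at 219 and 53 bases before it. Of all 35116 windows of this length, 18.5% held ACGTG and 32.2% held GCGTG, so neither match is rare. The SESN2 window held none of the 5 motifs. The composite element, present in 0.888% of all windows, was found in 0 of 8 windows of 7 members (TSC2 has 2 start sites in the table), and the E-box, present in 6.35%, in 1, at 114 bases before a TSC2 start. These matches are descriptions of letters and were not tested for binding. No window was read for AKT1S1, DEPTOR or EIF4EBP1.

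The arrays resembled each other closely. The values are log2 expression per probe set as the authors deposited them, from 2.95 to 15.3, and the 2 arrays of a group had r = 0.997 with vehicle and with AICAR, taken across probe sets, which are not independent replicates. The 8 epithelial and luminal markers, among them ERBB2, KRT18 and EPCAM, had means of 10.55 to 14.15 (log2). ESR1, the oestrogen receptor, fell 1.24-fold on its brightest probe set (limma adjusted p = 0.0411). That difference was the lowest of its 9 probe sets, which ran from -0.31 to 0.12 (log2), 5 of them negative. Of 12 markers of blood, endothelial, stromal and muscle cells, 5 lay below the bound for dim genes, the others had means of up to 9.70, and their summed level was 10.89 and 10.96 (log2) in the vehicle and 10.58 and 10.67 in the AICAR group. COL1A1, a collagen chain, alone passed the test there, at -0.63 on the brightest of its 5 probe sets. Those 5 ran from -0.63 to 0.13, with 4 negative. COL1A1 had the highest mean of the 12 and so weighs most in the summed level. The part of these markers in the results was not tested.

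After 24 h of AICAR, 0 of the 23 probe sets passed the test, which called 1.49% of all probe sets. At so low a share, 0 of 23 does not set these probe sets apart from the rest. The differences ran from -0.41 to 0.36 (log2, AICAR minus vehicle), 11 positive and 12 negative, with a median of -0.0094. Over all 54613 probe sets the median was 0.01, and the median absolute difference was 0.11 against 0.13 for the 23. The test was limma's moderated fit over all probe sets, called at a two-sided Benjamini-Hochberg adjusted p under 0.05. The lowest adjusted p among the 23 was 0.104. At an unadjusted p under 0.05 there were 4 (17.4%), 2 higher and 2 lower, against 16.1% of all probe sets. Both AICAR arrays lay above both vehicle arrays in 8 of 23 probe sets (34.8%), against 23.6% of all, and below both in 3 (13.04%), against 23.3% of all. These shares were not tested, since probe sets of 1 gene share their transcript.

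**Figure D1:**
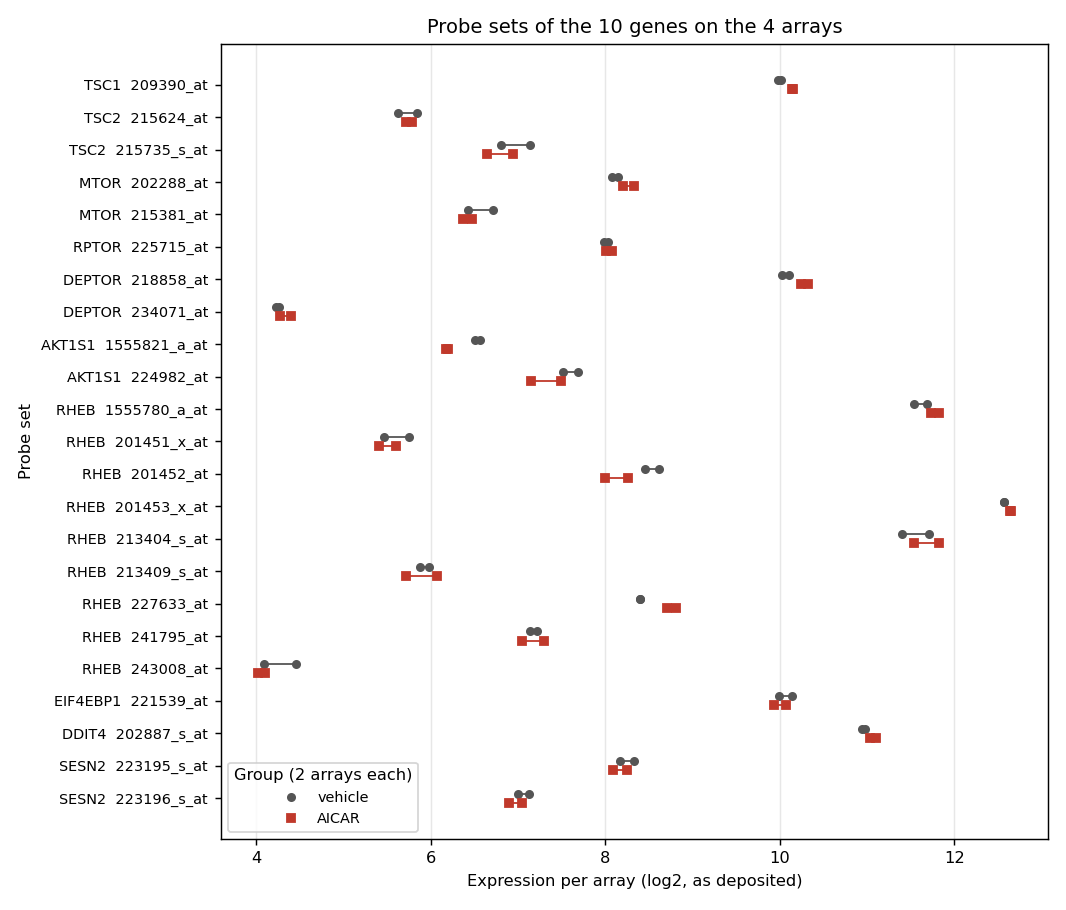
Expression on each of the 4 arrays (horizontal axis, log2 as deposited) for the 23 probe sets, with vehicle as circles and AICAR as squares and a line joining the 2 arrays of a group. On the scale of this axis the 2 groups lie close together in every row, and they overlap in 12 of the 23.

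The precision sets what these arrays could show. The smallest difference called on the whole array was 0.49, and no probe set with a difference as small as these 23 was called. The intervals give the range of change that the spread between these arrays allows, and that spread may be technical. Each 95% confidence interval lay between -0.69 and 0.57, that is between 1.61-fold lower and 1.49-fold higher, so none reached a doubling or a loss of 50%. These intervals are per probe set and are not adjusted for their number. An exact permutation test of 2 against 2 arrays cannot give a two-sided p below 0.333 and was not used.

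**Figure D2:**
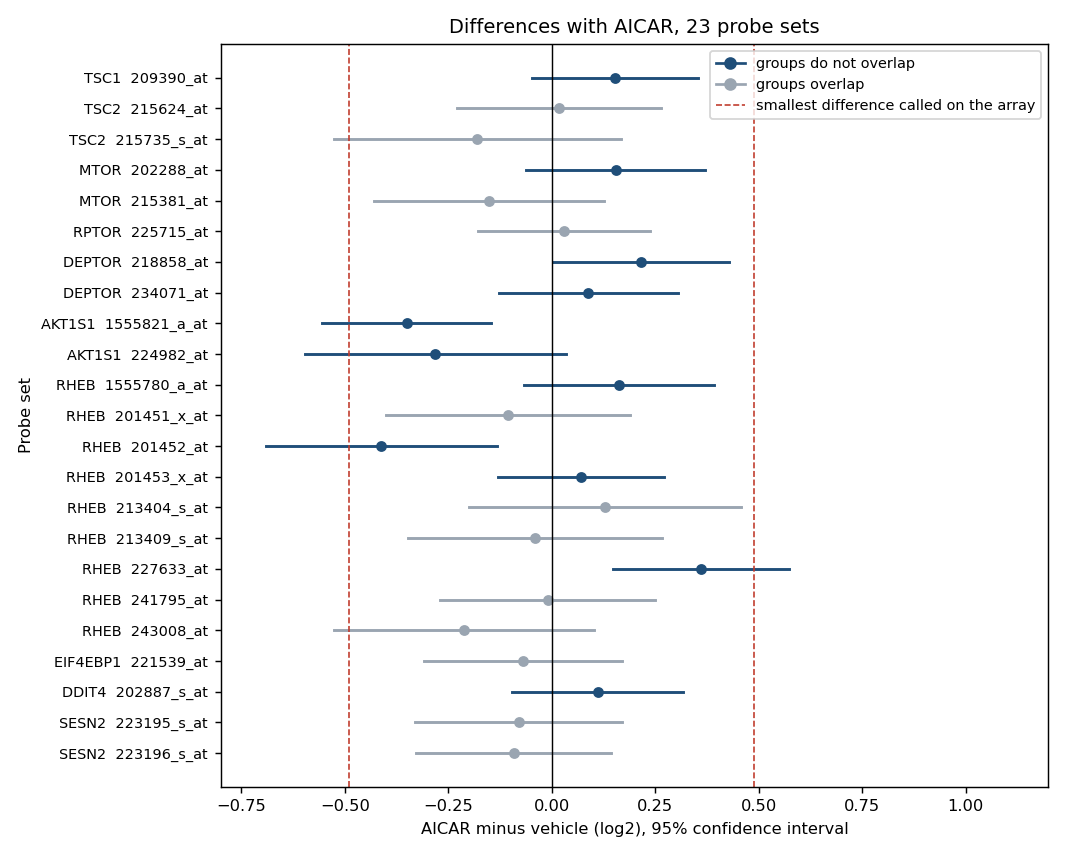
Difference of AICAR minus vehicle (horizontal axis, log2) with its 95% confidence interval for the 23 probe sets, dark where the groups do not overlap and light where they do. Dashed lines stand at the smallest difference called on the whole array, 0.49 in either direction, and every point lies between them.

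No probe set of the kinase or its scaffold was called. MTOR, the catalytic subunit shared by mTORC1 and mTORC2, read 8.14 and 8.08 (log2) with vehicle and 8.21 and 8.32 with AICAR on probe set 202288_at. The AICAR arrays were the higher ones without overlap, at a difference of 0.15 (SE 0.0917, limma adjusted p = 0.473). Its other probe set, 215381_at, read 6.43 and 6.72 with vehicle and 6.37 and 6.47 with AICAR, which overlap, and differed by -0.15 (adjusted p = 0.591). The effects on these 2 probe sets differed by 0.31 (SE 0.151), which did not pass the test of probe sets against the others of their gene (limma diffSplice, adjusted p = 0.432). RPTOR, the scaffold that brings substrates to the kinase and is itself a target of AMPK, read 7.99 and 8.04 with vehicle and 8.08 and 8.003 with AICAR. Its groups overlapped, and they differed by 0.03 (adjusted p = 0.905; the 95% confidence interval, -0.18 to 0.24, leaves room for at most a 1.18-fold rise).

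The 2 inhibitory subunits had differences of opposite sign. AKT1S1, which encodes PRAS40, a subunit that AKT phosphorylates to relieve its inhibition of mTORC1, read 6.51 and 6.56 with vehicle and 6.18 and 6.19 with AICAR on probe set 1555821_a_at. Both groups were tight and did not overlap, and the 1.27-fold lower level with AICAR (log2 -0.35, SE 0.0860) had an adjusted p of 0.104, the lowest of the 23. On 224982_at it read 7.69 and 7.52 with vehicle and 7.50 and 7.15 with AICAR, again without overlap, but the AICAR arrays were further apart than the gap between the groups. That probe set differed by -0.28 (SE 0.133, adjusted p = 0.365), and by -0.11 without AICAR replicate 2. The mean of both AKT1S1 probe sets differed by -0.32 (SE 0.0805, adjusted p = 0.0905 over all genes). With dim genes left out, the limma adjusted p of this mean was 0.0514. The lower level was thus shared by both probe sets but was not called.

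DEPTOR, which binds MTOR and inhibits both of its complexes, read 10.10 and 10.03 with vehicle and 10.24 and 10.33 with AICAR on 218858_at. The AICAR arrays were higher without overlap, by 0.22 (SE 0.0900, 95% confidence interval 0.0023 to 0.43, adjusted p = 0.304). With 1 probe set a gene it did not pass either (adjusted p = 0.124), but it did with a trend and robust variances (0.0376), a setting that called 17.8% of all genes and 1 of the 10 members. Its other probe set, 234071_at, lay below the 30th percentile of probe set means (log2 5.21) and differed by 0.09. The same bound left 21 of the 23 probe sets, the other dim one being 243008_at of RHEB.

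The TSC genes showed no called change. TSC1 read 10.01 and 9.98 with vehicle and 10.14 and 10.16 with AICAR, with the AICAR arrays above, at a difference of 0.15 (SE 0.0849, adjusted p = 0.443). TSC2, the subunit that AMPK and AKT both phosphorylate, read 7.14 and 6.81 with vehicle and 6.94 and 6.65 with AICAR on 215735_s_at. Its arrays spread more within each group than between the groups, at a difference of -0.18 (SE 0.146, adjusted p = 0.609). Its probe set 215624_at differed by 0.02 (adjusted p = 0.954), with groups that also overlapped. The interval of the brighter TSC2 probe set, -0.53 to 0.17, allows a fall of up to 1.44-fold.

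RHEB, the direct activator of mTORC1, was read by 9 probe sets with differences from -0.41 to 0.36, 4 positive and 5 negative, with no common direction. The lowest was 201452_at, with 8.62 and 8.46 on the vehicle and 8.26 and 7.995 on the AICAR arrays, a difference of -0.41 (SE 0.118, adjusted p = 0.149). The highest was 227633_at, with 8.40 and 8.39 on the vehicle and 8.70 and 8.81 on the AICAR arrays, a difference of 0.36 (SE 0.0896, adjusted p = 0.106). The groups did not overlap on either probe set.

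Set against the other RHEB probe sets, 201452_at differed by -0.46 (SE 0.145, diffSplice adjusted p = 0.124) and 227633_at by 0.41 (adjusted p = 0.173). That test called 1.48% of the probe sets in genes with several. The F test for any difference among the probe sets of a gene called 2.96% of 10523 such genes and 0 of the 6 members with several; RHEB had the lowest adjusted p, 0.237. With a trend and robust variances both RHEB probe sets passed the test against vehicle, 201452_at as lower (adjusted p = 0.0366) and 227633_at as higher (0.0218), and 227633_at also passed with the dimmer 50% of probe sets left out (0.0403). The first of these settings called 7.26% of all probe sets and 2 of the 23, the other 8.76% and 1 of the 17 left.

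The remaining RHEB probe sets lay between these. The 3 brightest, 201453_x_at, 1555780_a_at and 213404_s_at, differed by 0.07, 0.16 and 0.13 (adjusted p = 0.738, 0.472 and 0.711). Of these 201453_x_at was the tightest, at 12.56 and 12.57 with vehicle and 12.63 and 12.65 with AICAR, and its interval, -0.13 to 0.27, allows a rise of at most 1.21-fold. The suffix x on this array marks probes that can bind other transcripts. RHEB has processed pseudogenes, so its x and s probe sets may read more than RHEB, which was not tested. The lowest and highest RHEB probe sets, 201452_at and 227633_at, carry neither suffix. The mean of all 9 differed by -0.0058.

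**Figure D3:**
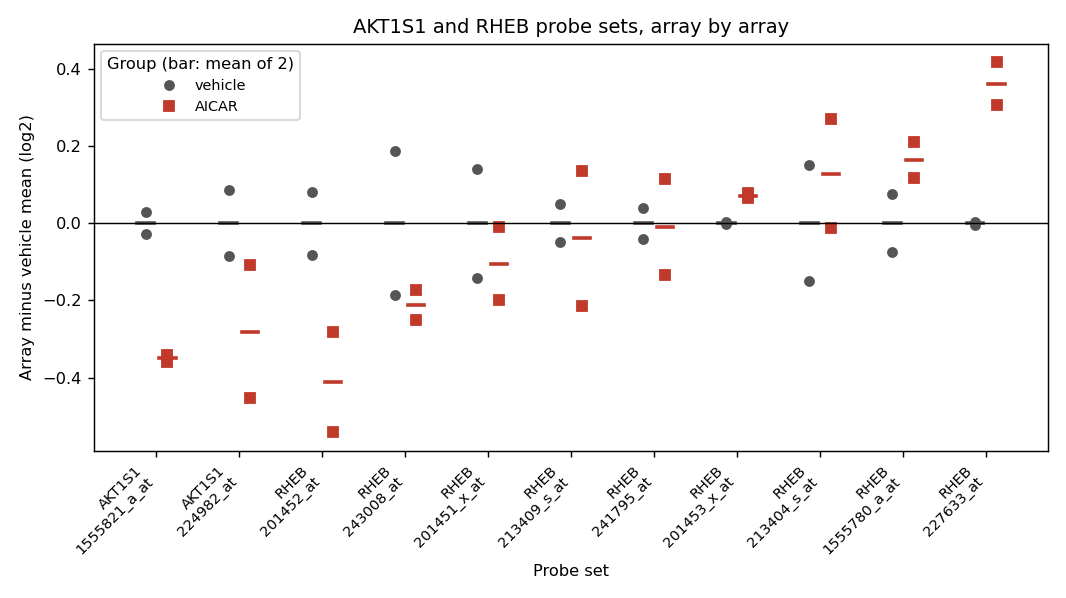
Each array's value minus the mean of the 2 vehicle arrays (vertical axis, log2) for the 2 AKT1S1 and 9 RHEB probe sets, with vehicle as circles, AICAR as squares and bars at group means. Both AKT1S1 probe sets lie below 0 with AICAR, while the RHEB probe sets range from -0.41 to 0.36.

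EIF4EBP1, the repressor of cap-dependent translation that mTORC1 phosphorylates and so releases from EIF4E, read 9.99 and 10.14 with vehicle and 10.07 and 9.93 with AICAR. The groups overlapped, and they differed by -0.07 (adjusted p = 0.789; the 95% confidence interval ran from -0.31 to 0.17). Its relative EIF4EBP2, tested with 1 probe set a gene, differed by -0.20 (adjusted p = 0.282). It has 5 probe sets, whose differences ran from -0.34 to -0.07.

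The stress-induced brakes were not called in either direction. DDIT4 read 10.94 and 10.97 with vehicle and 11.03 and 11.10 with AICAR, higher on both AICAR arrays, but by 0.11 only (SE 0.0873, adjusted p = 0.597). The interval, -0.10 to 0.32, allows a rise of at most 1.25-fold. SESN2 read 8.34 and 8.17 with vehicle and 8.25 and 8.09 with AICAR on 223195_s_at, and 7.13 and 6.999 against 7.04 and 6.90 on 223196_s_at. On both probe sets the groups overlapped, with differences of -0.08 and -0.09 (adjusted p = 0.767 and 0.710), and the intervals allow a rise of at most 1.13-fold and 1.10-fold. The effects on the 2 SESN2 probe sets differed by 0.01 (diffSplice adjusted p = 0.986).

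Other pathway genes were counted with 1 probe set a gene, the one with the highest mean, over the 13842 genes above the bound for dim genes (log2 6.11). In this fit 0 of the 10 members passed either, against 9.82% of all genes, 4.63% higher and 5.19% lower (limma, adjusted p under 0.05); 1 member, DEPTOR, had an unadjusted p under 0.05, against 26.1% of all genes, and was higher. The smallest difference called here was 0.28, and AKT1S1, at -0.28 with a wider spread, had an adjusted p of 0.219. The 10 lists of other genes held 115 names, of which 102 had a probe set used here and 97 were tested; 7 rose and 12 fell. Over all genes 641 rose and 718 fell, and after quantile normalization 855 and 625. With no dim filter, 8 of these 19 calls missed the threshold: RPS6KB1 (adjusted p = 0.0852), RRAGC (0.0758), SEH1L (0.0916), RPS6KA3 (0.0919), LPIN1 (0.0852), ULK1 (0.0826), CEBPB (0.0886) and P4HA1 (0.0526).

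Of 9 partners of the TSC and mTOR complexes 0 passed (limma; also 0 at an unadjusted p under 0.05), with a median of -0.0078. MLST8, the remaining core subunit of both mTOR complexes, differed by -0.12 (adjusted p = 0.325), TBC1D7, the remaining TSC subunit, by -0.04 (0.761), and the RHEB paralog RHEBL1 by 0.11 (0.395; its other probe set differed by 0.50, and the mean of both by 0.30, adjusted p = 0.0544). PRR5L, which binds mTORC2, had the largest difference, 0.20 (adjusted p = 0.3004), on groups that overlap.

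In the amino acid branch, which recruits mTORC1 to the lysosome, 2 of 22 tested genes rose and 2 fell, with a median of 0.09. RRAGD, a Rag GTPase, rose 1.69-fold, from 8.56 and 8.18 to 8.998 and 9.25 (SE 0.143 on the log2 scale, adjusted p = 0.0272), and RRAGC, its close relative, 1.24-fold (log2 0.32, adjusted p = 0.0360; 0.18 and 0.165 with its 3 probe sets averaged). ITFG2, a KICSTOR subunit, fell 1.35-fold (adjusted p = 0.0226), though 1 of its 4 probe sets differed by 0.30 and their mean by -0.09 (0.455). SEH1L, shared by GATOR2 and the nuclear pore, fell 1.26-fold (0.0479). Of these 4 genes only RRAGD passed in any fit that left out 1 array, and not without vehicle replicate 2 (0.103) or AICAR replicate 2 (0.0836). With probe sets averaged per gene, the list's median was -0.01.

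In the growth factor branch 1 of 13 tested genes rose and 0 fell, with a median of 0.01. It was RPS6KA3, the kinase RSK2, which can phosphorylate TSC2, at 1.26-fold (log2 0.33, adjusted p = 0.0480; 0.19 and 0.122 with its 2 probe sets averaged). RPS6KA3 passed without AICAR replicate 1 but not without AICAR replicate 2 (0.119), vehicle replicate 1 (0.206) or vehicle replicate 2 (0.192).

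Among the translation targets of mTORC1, both S6 kinase genes fell. RPS6KB1 read 12.41 and 12.43 with vehicle and 12.02 and 12.15 with AICAR. The groups did not overlap, and the fall of 1.26-fold (log2 -0.34, SE 0.0758) had an adjusted p of 0.0440. Its 3 probe sets gave differences from -0.35 to -0.34. RPS6KB2 read 8.75 and 8.71 against 8.37 and 8.30, a fall of 1.31-fold (log2 -0.39, SE 0.0694, adjusted p = 0.0232). They were the only called genes of 11 tested, and the median was -0.17. RPS6KB1 did not pass in any fit that left out 1 array (adjusted p = 0.0547 to 0.196), and RPS6KB2 passed only without AICAR replicate 1, while both kept their sign. RPS6, the ribosomal protein that these kinases phosphorylate, differed by 0.04 (0.741).

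Of 8 other direct substrates, LPIN1, a phosphatidate phosphatase, rose 1.31-fold (adjusted p = 0.0472), and ULK1, the kinase that starts autophagy and is inhibited by mTORC1, fell 1.27-fold (0.0421). Neither passed in a fit that left out 1 array (LPIN1 0.0821 to 0.207, ULK1 0.0568 to 0.235). The median was 0.02.

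Relatives of the brakes were measured too, in a list that also held TXNIP, which is not a paralog of DDIT4 or the sestrins. Of the 3 genes tested in it, only TXNIP was called. SESN1 differed by 0.17 (adjusted p = 0.240) and SESN3 by 0.31 (0.0660), with 4 of its 7 probe sets negative. The SESN3 probe set used had means of 6.08 with vehicle and 6.39 with AICAR, near the bound for dim genes (log2 6.11). DDIT4L, the paralog of DDIT4, was dim and, without the filter, differed by -0.04 (0.855). TXNIP, an arrestin-domain protein that binds DDIT4, rose 1.58-fold, from 11.80 and 11.72 to 12.39 and 12.44 (SE 0.0703, adjusted p = 0.00776), with 3 of 3 probe sets positive; without vehicle replicate 2 it had an adjusted p of 0.0558.

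The factors known to induce DDIT4 and SESN2 have other targets, which were read from lists of their own. Of 10 genes for ATF4 and its targets 0 rose and 4 fell, with a median of -0.30 against 0.01 for all genes tested. The lists were chosen with earlier results of these data known, so this contrast is a description and was not tested. ATF4 itself read 13.16 and 13.18 with vehicle and 12.79 and 12.71 with AICAR, without overlap. It fell 1.34-fold (SE 0.0697 on the log2 scale, adjusted p = 0.0201). The cystine transporter SLC7A11 fell 2.46-fold (log2 -1.30, adjusted p = 0.00776; -0.91 and 0.0050 with its 3 probe sets averaged), the secreted hormone STC2 1.31-fold (0.0218) and the transcription factor CEBPB 1.23-fold (0.0426). TRIB3, another ATF4 target and an inhibitor of AKT, differed by 0.09 (0.440). SLC7A11 passed in each fit that left out 1 array, ATF4 and STC2 only in the one without AICAR replicate 1, and CEBPB in none.

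Of 9 tested HIF1 targets, 1 rose and 2 fell, with a median of -0.06. ADM, the peptide adrenomedullin, rose 1.69-fold (adjusted p = 0.00889), PDK1, the pyruvate dehydrogenase kinase, fell 1.75-fold (0.0181), and P4HA1, a collagen prolyl hydroxylase, fell 1.30-fold (0.0247). With its 3 probe sets averaged, PDK1 differed by -0.28 in place of -0.81 (log2, adjusted p = 0.0544), the weakest at -0.0086. The average of both P4HA1 probe sets was -0.19 in place of -0.37 (0.116). Without vehicle replicate 2 all 3 genes missed the threshold (0.0520, 0.0845 and 0.108), and so did PDK1 (0.0922) and P4HA1 (0.163) without vehicle replicate 1; P4HA1 also missed it without AICAR replicate 1 (0.0602) or 2 (0.0611). Of 7 p53 targets 0 passed, with a median of 0.06; CDKN1A, the cell cycle inhibitor p21, differed most, by 0.17 (0.261). Of 5 glucocorticoid receptor targets, the phosphatase DUSP1 rose 1.67-fold (log2 0.74, adjusted p = 0.0116; 0.37 and 0.0327 with its 3 probe sets averaged, the lowest at 0.05) and the kinase SGK1 fell 1.40-fold (0.0254), with a median of -0.08. DUSP1 missed the threshold without vehicle replicate 1 (0.0709) or 2 (0.0513), and SGK1 without either of these (0.136 and 0.116) or AICAR replicate 1 (0.0526).

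**Figure D4:**
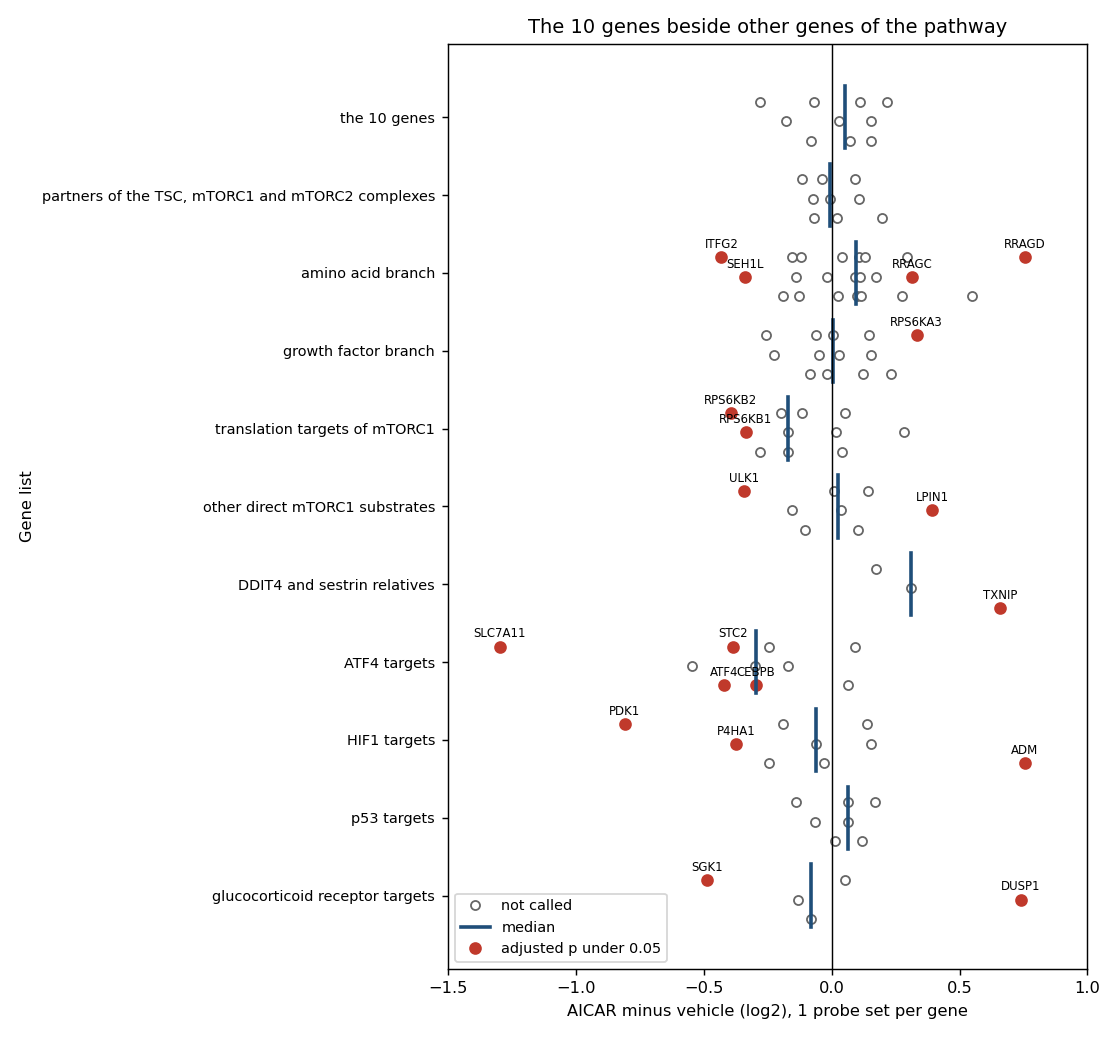
Difference of AICAR minus vehicle (horizontal axis, log2, 1 probe set per gene) for the 10 genes in the top row and for 10 lists of other genes; filled points passed at an adjusted p under 0.05, open points did not, and bars are list medians. The top row holds only open points, between -0.28 and 0.22. The row of ATF4 targets reaches from -1.30, which is SLC7A11, to 0.09, and its next lowest gene, VLDLR, lies at -0.55. In the row of DDIT4 and sestrin relatives the filled point is TXNIP, which binds DDIT4 but is not its paralog.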

How the data were processed

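Affymetrix U133 Plus 2.0 arrays read biotin-labelled total RNA. The deposited values are log2 expression per probe set, normalized by the authors with Affymetrix Expression Console, per the submitters' processing notes; for its version, summarization and background correction, the sources used here give nothing, and such steps can shrink the changes of dim probe sets. Values were used as deposited.

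The array holds 54675 probe sets, 62 of them controls, which were left out. Of the 54613 others, the platform annotation gave 1 symbol to 41091, several to 1801 and none to 11721; symbols of 41037 were updated through Entrez IDs with RefSeq of GRCh38.p14. Some genes are not analysed here.

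AICAR minus vehicle was fitted by limma 3.58.1 under R 4.3.3 (lmFit, then eBayes) over all probe sets, without a filter, and over 1 probe set a gene, leaving out the 30% with the lowest means. Probe sets of a gene were compared with diffSplice. Adjustment was by Benjamini-Hochberg over each table, and the scripts were tested on simulated data. Alternatives were other filters, quantile normalization, median centring, a trend with robust variances, an adjusted p under 0.1, gene means, a replicate block and each array left out. Named were all members, fixed paralogs and partners, and from each list up to 4 called genes with the largest difference, or the largest where none was called; RPS6, TRIB3 and the markers named were picked with their values known. The members and lists were chosen with earlier results of these data known.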

Additional observations from a re-analysis of the deposited data

How the results depend on the processing

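With 2 arrays a group, precision limits these results. Of 23 member probe sets, 0 were called in the fit reported, but 2 with a trend and robust variances and 1 with the dimmer 50% left out, all of RHEB; with 1 probe set a gene, 1 of 10 members (DEPTOR) was called with a trend and robust variances, where 17.8% of all genes were. In the other settings, the single-array omissions included (range 0 to 0), 0 members were called, and in each setting run for the F test, 0 members had probe sets that differed from each other. Quantile normalization and median centring turned no member's sign. The probe sets called on the whole array numbered 812 as reported, 1469 and 2392 with the dimmest 30% and 50% left out, 3965 with a trend and robust variances, 2390 at an adjusted p under 0.1, and 0 or 1 without any 1 array.

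Of the 19 called genes in the other lists, 11 were called without the dim filter, all among the same 19. Without 1 array the count was 1 to 11, with 4 of the 19 kept without vehicle replicate 1, 1 without vehicle replicate 2, 10 without AICAR replicate 1 and 6 without AICAR replicate 2. All 19 kept their sign in every setting. In none of them did the groups overlap, so leaving out 1 array could not turn the sign of the probe set used. Other thresholds and variances leave the difference as it is.

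The replicate block called 0 member probe sets, 0 member genes and 15 list genes. The deviations of same-numbered arrays had r = -0.07 over all probe sets. Within a group so small, the deviations of the arrays mirror each other, so the opposite pairing only turns the sign of r. This r therefore cannot show whether same-numbered arrays shared a culture or a day, which the labels do not give.

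Signs that turned belong to uncalled differences. With the mean of probe sets RHEB was at -0.0058 and TBC1D7 at 0.0877. Over the fits without 1 array, the differences ran from -0.15 to 0.0064 for EIF4EBP1 221539_at, -0.25 to 0.0365 for RHEB 201451_x_at, -0.0211 to 0.28 for RHEB 213404_s_at, -0.22 to 0.14 for RHEB 213409_s_at, -0.13 to 0.11 for RHEB 241795_at, -0.0098 to 0.0697 for RPTOR 225715_at, -0.16 to 0.0043 for SESN2 223195_s_at and -0.0895 to 0.13 for TSC2 215624_at. The cause was not tested.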
